A study of Homo sapiens with 24 samples.

Results

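Copies of the spliceosomal small nuclear RNAs (snRNAs) U1, U2, U4 and U5 were followed in ribosome footprint libraries. They were the rows of the footprint count table whose symbols begin with RNU1-, RNU2-, RNU4-, RNU5 or RNVU1 and whose counts summed to at least 200 over the 12 footprint libraries. This gave 148 copies out of 334 rows with such symbols and 57992 rows in all. They comprised 85 copies of U1, 35 of U2, 18 of U4 and 10 of U5. The members were chosen by their summed footprint counts, and how high those counts are is a description and not a finding.

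Each group was named by its guide, day and assay. Footprints were taken with the guide sgDDX3 at days 0, 3 and 14 and with the control guide sgGal4 at the same days, and RNA of the cytosol was sequenced for the same 6 combinations, with 2 libraries in each of the 12 groups. For footprints, lysates of cycloheximide-treated cells were digested with RNase I and passed over size-exclusion columns, and the RNA was depleted of ribosomal RNA. All cells were K562, an established line from a chronic myelogenous leukaemia, with a CRISPR interference repressor that doxycycline (50 ng per ml) induces. sgDDX3 targets DDX3X, the gene of an RNA helicase of translation initiation. The labels list doxycycline at day 0 too and leave unsaid whether those cells had been given it. Nothing in them says that the 2 libraries of a group came from separate cultures, and a p-value here covers the spread between these libraries alone, which may be technical.

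The snRNAs are short non-coding RNAs that form the core of the spliceosome, each in a particle with a ring of Sm proteins and proteins of its own. U1 pairs with the start of an intron and U2 with its branch point, U4 is carried in paired to U6 and released before catalysis, and U5 holds the exon ends together. Precursors of these RNAs are exported to the cytoplasm, receive their Sm ring there and return to the nucleus. The human genome carries few functional genes for each snRNA beside many pseudogenes, which are copies inserted elsewhere and often altered. Because snRNAs are not translated, a footprint count on such a row is a sequenced fragment assigned to it and not a measure of translation.

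The libraries were checked first. DDX3X was lower with its guide. At day 3 its RNA was 36.3 ± 3.71 CPM with sgDDX3, against 179 ± 8.06 CPM with sgGal4, and its footprints were 34.0 ± 6.77 CPM against 141 ± 1.28 CPM (SD, n = 2; CPM are counts per library scaled to a common total, with TMM factors set within each assay). At day 14 its RNA was 118 ± 23.0 CPM with sgDDX3 and 194 ± 9.63 CPM with sgGal4. Of 9 markers of K562 cells, 7 reached 10 CPM in every RNA library and 1, HBG1, stayed under 1 CPM, and of 8 markers of other blood cells none reached 10 CPM (highest value 7.12 CPM). Footprint libraries held 6223963 to 15240512 counts and RNA libraries 10266619 to 43256563.

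The 148 copies held 12169144 footprint counts, 10.4% of all footprint counts, and 343322 RNA counts, 0.152% of all RNA counts. In single libraries their share ran between 8.64% and 13.1% of footprint counts. The share in footprints was 68.7 times the share in RNA over all copies. By class this ratio was 70.8 for U1, 50.7 for U2, 15.1 for U4 and 335 for U5. Among these classes U5 therefore had the largest excess and U4 the smallest. The footprint and RNA libraries were made by different protocols, and what part that has in these ratios was not tested. Other RNAs had such an excess too, in medians over the 12 libraries of an assay. Y RNAs took 0.782% of footprint counts and 0.00144% of RNA counts, U6 rows 0.837% and 0.00365%, and mitochondrial rRNA 4.93% and 0.0148%. 7SK and 7SL rows went the other way, with at most 0.685% of footprint counts and at least 7.43% of RNA counts. MALAT1 and NEAT1 together did so too (medians 0.120% and 0.824%). The excess was thus not particular to the copies.

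U1 dominated both assays, with 9435570 footprint counts (77.5% of those on the copies) and 258188 RNA counts (75.2%). U5, second in footprints with 1355120 counts (11.1%), was last in RNA with 7826 counts (2.28%). U2 had 1103692 footprint counts (9.07%) and 42148 RNA counts (12.3%), and U4 had 274762 (2.26%) and 35160 (10.2%). U5 thus stood before U2 and U4 in footprints and after both in RNA.

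The 2 assays also differed in which copies held the counts. A RefSeq entry was found for 146 of the 148 copies, and it called 28 of them snRNA genes (19 of U1, 2 of U2, 2 of U4 and 5 of U5) and 118 pseudogenes. Pseudogenes held 40.1% of the footprint counts of the copies and 15.6% of their RNA counts. For U2 the contrast was widest, with 85.7% of footprint counts but 0.852% of RNA counts on pseudogenes. For U1 these shares were 40.7% and 20.4%, for U4 21.1% and 0.475%, and for U5 2.34% and 1.18%. In all, 53 copies, 52 of them pseudogenes by RefSeq, had no RNA count in any of the 12 RNA libraries, and 34 copies reached 100 RNA counts.

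**Figure D1:**
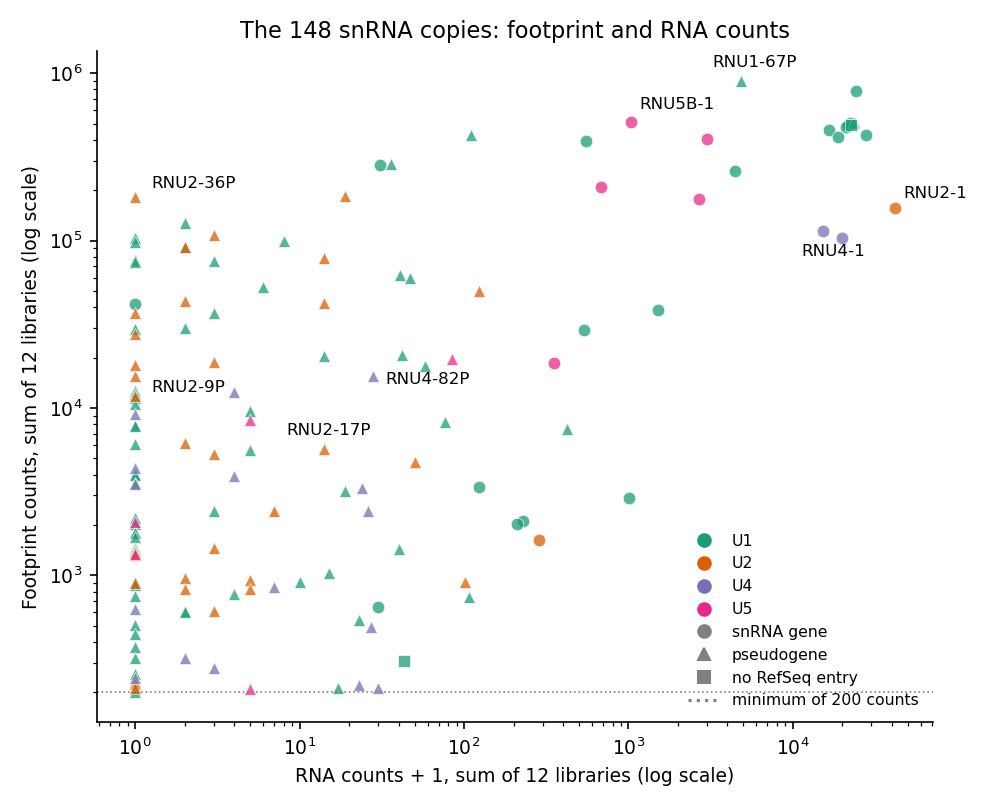
Summed footprint counts (vertical, log scale) against summed RNA counts plus 1 (horizontal, log scale) of the 148 copies over 12 libraries each, coloured by class and shaped by RefSeq annotation. The 53 copies without an RNA count form the left column, which reaches up to RNU2-36P with 182746 footprint counts.

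Single U2 copies show how far the assays went apart. RNU2-1, 1 of the 2 U2 copies that RefSeq calls snRNA genes (chr17:43233790-43233977, GRCh38), had 155745 footprint counts and 41505 RNA counts. The latter were 98.5% of all RNA counts on U2 copies. RNU2-37P and RNU2-36P, both pseudogenes, had more footprint counts than RNU2-1, at 184864 and 182746, with 18 RNA counts for RNU2-37P and 0 for RNU2-36P. With the limit of 3 counts that a count of 0 over all RNA libraries allows, the footprint share of RNU2-36P was at least 118001 times its RNA share. RNU2-2P was listed at 0 in both tables. How the authors assigned reads that match several copies is not given in the sources used here, and the values of single copies are uncertain for that reason. The totals, shares and ratios of the classes rest on it too. A read counted at each copy it matches would enter a class total more than once.

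Levels per length gave another order. RNU1-67P, a pseudogene on chromosome X inside the gene SLC25A43, had the highest footprint level per length of all copies, with a median of 45064 CPM per kb over the libraries, and its RNA level was 124 CPM per kb. RNU5B-1, one of the genes for the variants of U5, came next with 44417 CPM per kb in footprints and 34.7 in RNA. RNU2-1 had the highest RNA level per length, 893 CPM per kb, and 6553 CPM per kb in footprints. RNU4-1 and RNU4-2, the genes for U4 on chromosome 12, had 5994 and 5900 CPM per kb in footprints and 435 and 548 in RNA. The copies that lead in footprints were thus not those that lead in RNA.

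Within U1 several large copies had nearly equal counts. RNU1-1, RNU1-2, RNU1-4, RNVU1-18 and RNVU1-29 with the pseudogenes RNU1-27P and RNU1-28P lay within 1.10-fold to 1.12-fold of each other in each footprint library, and within 1.32-fold to 1.53-fold in RNA. These 7 copies were grouped after their values were seen. All 19 U1 snRNA genes lie on chromosome 1. RNVU1-7, a variant U1 gene, had 785281 footprint counts and RNU1-67P had 894983. The 3 largest copies held 23.2% of U1 footprint counts, against 47.4% of U2, 84.6% of U4 and 83.3% of U5, so that U1 was spread over the most copies.

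The order of the copies by footprint level was alike in the 12 libraries. Over the 66 pairs of libraries, Spearman's rho between the copies was 0.974 to 0.996 for the 85 U1 copies, 0.914 to 0.995 for U2, 0.897 to 0.988 for U4 and 0.952 to 1.00 for U5. The points of these correlations share their sequences and their libraries, and no p is given. Single copies still varied. The highest library exceeded the lowest 1.74-fold for RNU2-37P and 13.0-fold for RNU2-17P, the extremes within U2, with a median of 3.38-fold over the 35 U2 copies and 2.44-fold over the 85 U1 copies.

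Many pseudogene copies sit inside other genes. Of 118 pseudogenes, 45 lay within the span of a protein-coding RefSeq gene and 68 within any other RefSeq gene, and of 28 snRNA genes 2 and 6 did. Whether a copy lies in an exon or an intron was not analysed here. RNU2-17P (chr1:150236967-150237156), RNU2-9P (chr2:148825691-148825835), RNU2-32P, RNU2-63P and RNU2-3P lay in no other RefSeq gene. RNU4-82P (chr9:124887410-124887549) lay within GOLGA1, RNU2-37P within RUVBL1 and RNU2-68P within HDAC8.

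At the rule's limit, the copies just above 200 counts were RNU1-84P with 201, RNU5F-4P with 209 and RNU1-61P with 210 footprint counts. Just below it stood RNU4-31P and RNU4-58P with 194 each and RNU1-38P with 185. Of the 186 rows under the limit, 44 had no footprint count. All 148 copies passed the low-count filter among footprints, where 19780 genes were tested, and 33 passed it in RNA, where 18287 were tested.

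The class shares by guide and day were compared next, as values without a test. U2 copies took 1.06% and 0.870% of footprint counts with sgDDX3 at day 0, against 0.755% and 0.804% with sgGal4. At day 3 they took 1.28% and 1.12% with sgDDX3, against 1.23% and 1.24% with sgGal4. At day 14 they took 1.14% and 0.887% with sgDDX3, against 0.597% and 0.702% with sgGal4. U2 was thus higher with sgDDX3 at days 0 and 14 without overlap, and the guides overlapped at day 3.

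U4 copies took 0.184% and 0.216% of footprint counts with sgDDX3 at day 0, against 0.221% and 0.249% with sgGal4. At day 3 they took 0.507% and 0.265% with sgDDX3, against 0.175% and 0.171% with sgGal4. At day 14 they took 0.223% and 0.293% with sgDDX3, against 0.164% and 0.256% with sgGal4. The first sgDDX3 library of day 3 stood far above the second, and both were above the sgGal4 libraries.

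U5 copies took 1.24% and 1.26% of footprint counts with sgDDX3 at day 0, against 0.870% and 1.29% with sgGal4. The guides overlapped in these shares, but not after TMM scaling (12720 and 12736 CPM, against 8803 and 12665 CPM). At day 3 they took 1.59% and 1.20% with sgDDX3, against 0.899% and 0.936% with sgGal4. At day 14 they took 1.41% and 1.44% with sgDDX3, against 0.616% and 1.45% with sgGal4. The 2 sgGal4 libraries of day 14 lay far apart, and the guides overlapped there too. U1 copies took 9.73% and 8.37% with sgDDX3 at day 3, against 6.33% and 7.42% with sgGal4, and overlapped at day 14. On the log2 scale of the scaled sums, the difference between the guides at day 3 was 0.46 for U1, 0.02 for U2, 1.15 for U4 and 0.66 for U5. In the same order of classes it was -0.04, 0.66, 0.34 and 0.61 at day 14, and 0.13, 0.33, -0.20 and 0.27 at day 0. In RNA it was -0.23, -0.05, -0.12 and -0.26 at day 0 and 0.39, -0.10, 0.29 and 0.27 at day 3. By day 14 it was 0.40, 0.23, 0.53 and 0.01 in RNA. The RNA sums of the guides overlapped at day 0 for all classes but U5, at day 3 for U2 alone and at day 14 for all but U2.

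**Figure D2:**
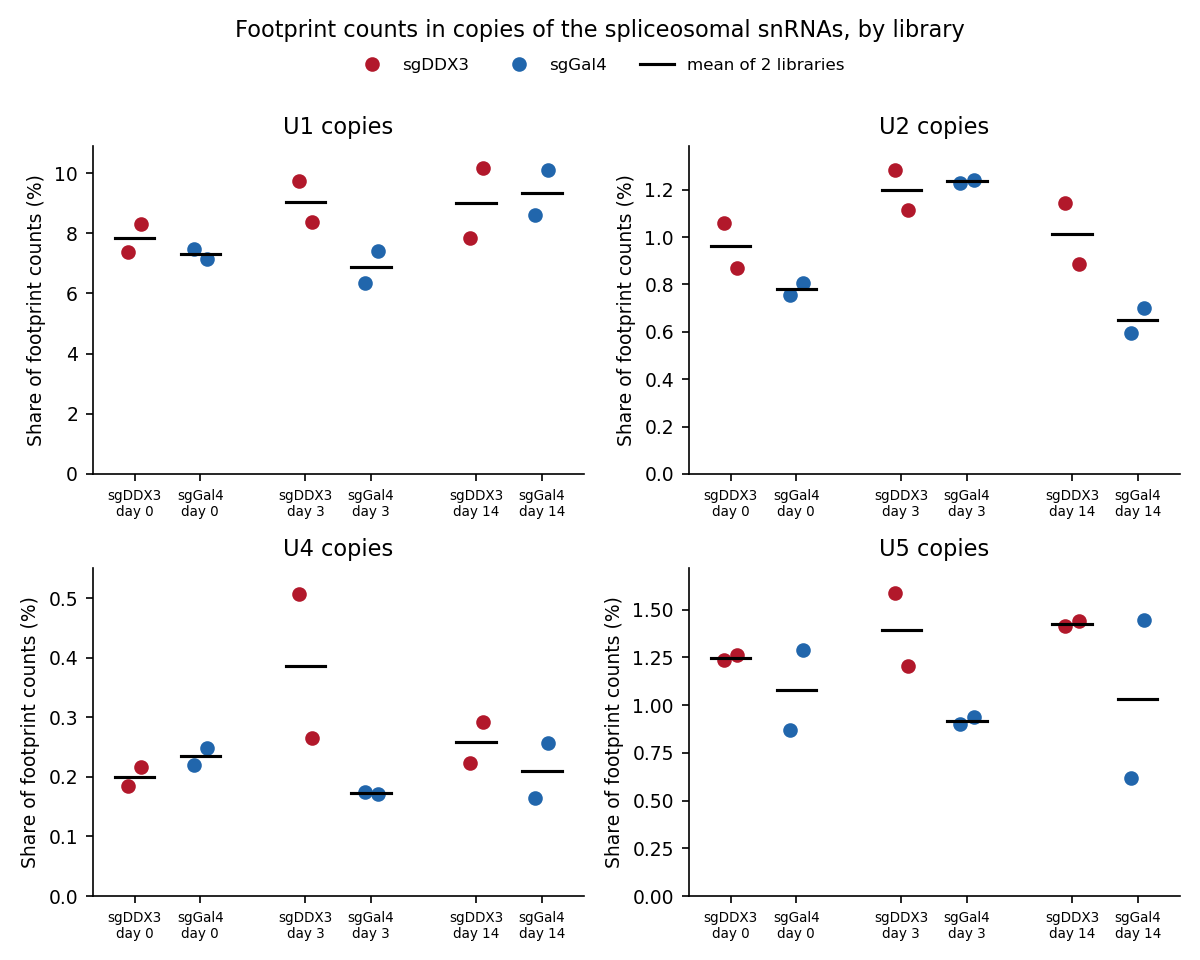
Share of footprint counts (%) in the copies of each snRNA class, by guide and day, with 1 point per library and a bar at the mean of 2 libraries. U2 copies with sgGal4 were lowest at day 14 (0.597% and 0.702%), and the first sgDDX3 library of day 3 was the highest for U4 (0.507%).

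Between the guides, the copies were tested one by one in a fit over all genes, with edgeR's quasi-likelihood test and Benjamini-Hochberg adjustment over all genes of the assay. At day 0 no copy passed the adjusted threshold of 0.05 in edgeR, whereas 0.0101% of all genes passed. There, 30 copies had an unadjusted p under 0.05, and DESeq2 called 1, RNU4-82P, lower. At day 3, 13 copies were higher with sgDDX3 (8.78% of 148, against 1.55% of all genes) and none was lower (2.25%), where 3.81% of all genes passed in either direction. At day 14, 28 were higher (18.9%, against 2.11% of all genes) and none was lower (1.29%), where 3.40% of all genes passed in either direction. DESeq2 called 13 higher at day 3 (7 of U1, 1 of U2, 5 of U4 and 0 of U5), 9 of them among edgeR's 13, and 25 at day 14 (1 of U1, 21 of U2, 2 of U4 and 1 of U5), 24 of them among edgeR's 28, of which 2 had no adjusted p in DESeq2. Copies of one class may share reads and are not independent of each other.

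The guide difference at day 14 was not tested against that at day 3. Of the 13 copies at day 3, 7 of 18 U4 copies, 4 of 85 U1 copies, 1 of 35 U2 copies and 1 of 10 U5 copies passed. Of the 28 at day 14, 23 of 35 U2 copies, 2 U4 copies, 2 U5 copies and 1 U1 copy passed. RNU4-82P and RNVU1-6 were the copies that passed at both days, 15.4% of those of day 3 and 7.14% of those of day 14. The median log2 difference at day 0 was 0.05 for U1, 0.52 for U2, -0.14 for U4 and 0.46 for U5, against -0.00 over all genes tested. The median of day 3 was 0.44 for U1, -0.08 for U2, 1.01 for U4 and 1.00 for U5, against 0.02 over all genes. At day 14 it was -0.03 for U1, 0.98 for U2, 0.36 for U4 and 0.87 for U5, against 0.00 over all genes.

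**Figure D3:**
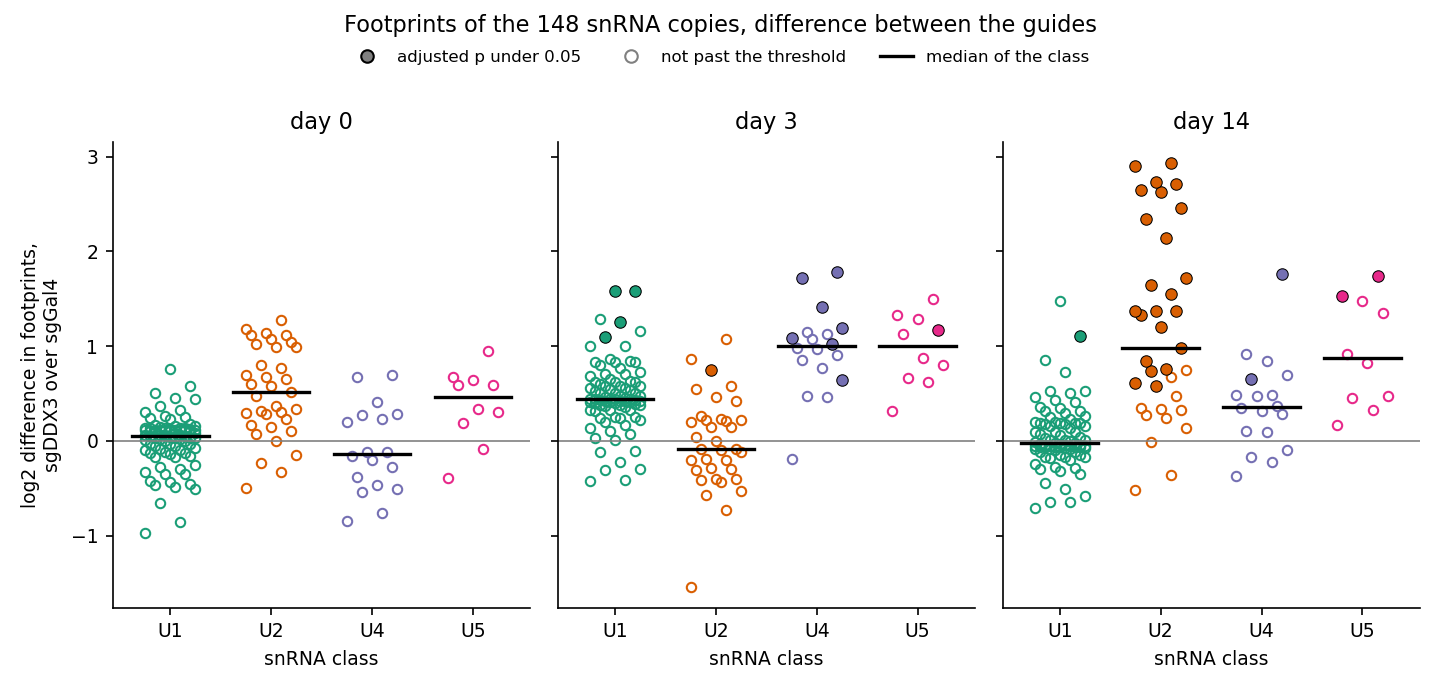
Log2 difference in footprints (sgDDX3 over sgGal4) of each of the 148 copies at days 0, 3 and 14, by class. Filled points passed the adjusted threshold of 0.05 in edgeR and bars mark class medians, with 23 filled U2 points at day 14 and 7 filled U4 points at day 3.

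Among the U2 copies at day 14, RNU2-17P had the largest log2 difference. At day 0 it had 87.3 and 53.4 CPM with sgDDX3, against 29.3 and 33.9 CPM with sgGal4. At day 3 it had 43.8 and 42.3 CPM with sgDDX3, against 72.2 and 54.7 CPM with sgGal4. At day 14 it had 102 and 54.6 CPM with sgDDX3, against 7.82 and 12.8 CPM with sgGal4. The sgDDX3 libraries were higher at days 0 and 14 and lower at day 3, and the guides overlapped at no day. The log2 difference was 1.14 ± 0.27 (SE) at day 0, where it did not pass (edgeR adjusted p = 0.398), -0.57 ± 0.28 at day 3 (adjusted p = 0.297) and 2.93 ± 0.32 at day 14 (adjusted p = 3.9e-04).

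RNU2-9P had a similar order of values. It had 183 and 111 CPM with sgDDX3 at day 0, against 69.6 and 51.6 CPM with sgGal4. At day 3 it had 81.6 and 115 CPM with sgDDX3, against 138 and 105 CPM with sgGal4. It had 227 and 125 CPM at day 14 with sgDDX3, against 19.3 and 27.9 CPM with sgGal4. At day 3 the guides overlapped, and at day 14 the lower sgDDX3 library stood far above both sgGal4 libraries. The log2 difference at day 14 was 2.91 ± 0.32 in edgeR, with an adjusted p of 4.3e-04. RNU2-9P had no RNA count, and RNU2-17P had 13.

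The smaller sgGal4 values of day 14 were also low against day 0 of the same guide. With sgGal4, RNU2-17P changed by -1.62 ± 0.32 between day 0 and day 14 (edgeR adjusted p = 0.0223) and RNU2-9P by -1.36 ± 0.31 (adjusted p = 0.041). With sgDDX3, RNU2-17P changed by 0.17 ± 0.27 (adjusted p = 0.746) and RNU2-9P by 0.27 ± 0.28 (adjusted p = 0.613). The sgGal4 calls of both were lost on leaving out any 1 of the 4 libraries. The change of the guide difference from day 0 to day 14 was 1.80 ± 0.42 for RNU2-17P (adjusted p = 0.142) and 1.63 ± 0.42 for RNU2-9P (adjusted p = 0.19), and neither passed. The difference at day 14 is thus not shown to exceed that at day 0. These comparisons share libraries.

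RNU2-1, a U2 snRNA gene by RefSeq, had 1479 and 1202 CPM of footprints with sgDDX3 at day 0, against 1121 and 1155 CPM with sgGal4. At day 3 it had 2237 and 1653 CPM with sgDDX3, against 1609 and 1747 CPM with sgGal4. Its day 14 values were 1262 and 1167 CPM with sgDDX3, against 964 and 1040 CPM with sgGal4. The guides did not overlap at day 14 but the log2 difference, 0.28 ± 0.14, did not pass (edgeR adjusted p = 0.322). RNU2-37P, with 1369 and 1403 CPM with sgDDX3 and 1423 and 1372 CPM with sgGal4 at day 14, differed by -0.01 ± 0.11 (adjusted p = 0.971). RNU2-36P had 2180 and 1594 CPM with sgDDX3 at day 14, against 798 and 1444 CPM with sgGal4, and differed by 0.75 ± 0.21 (adjusted p = 0.075).

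U2 copies therefore moved unequally. Against RNU2-1 in the same library, RNU2-17P ran from 0.811% (first sgGal4 library of day 14) to 8.06% (first sgDDX3 library of day 14) of its count, a 9.93-fold range. RNU2-37P ran from 106% to 148% of it, a 1.39-fold range. These ratios do not depend on the scaling between libraries.

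**Figure D4:**
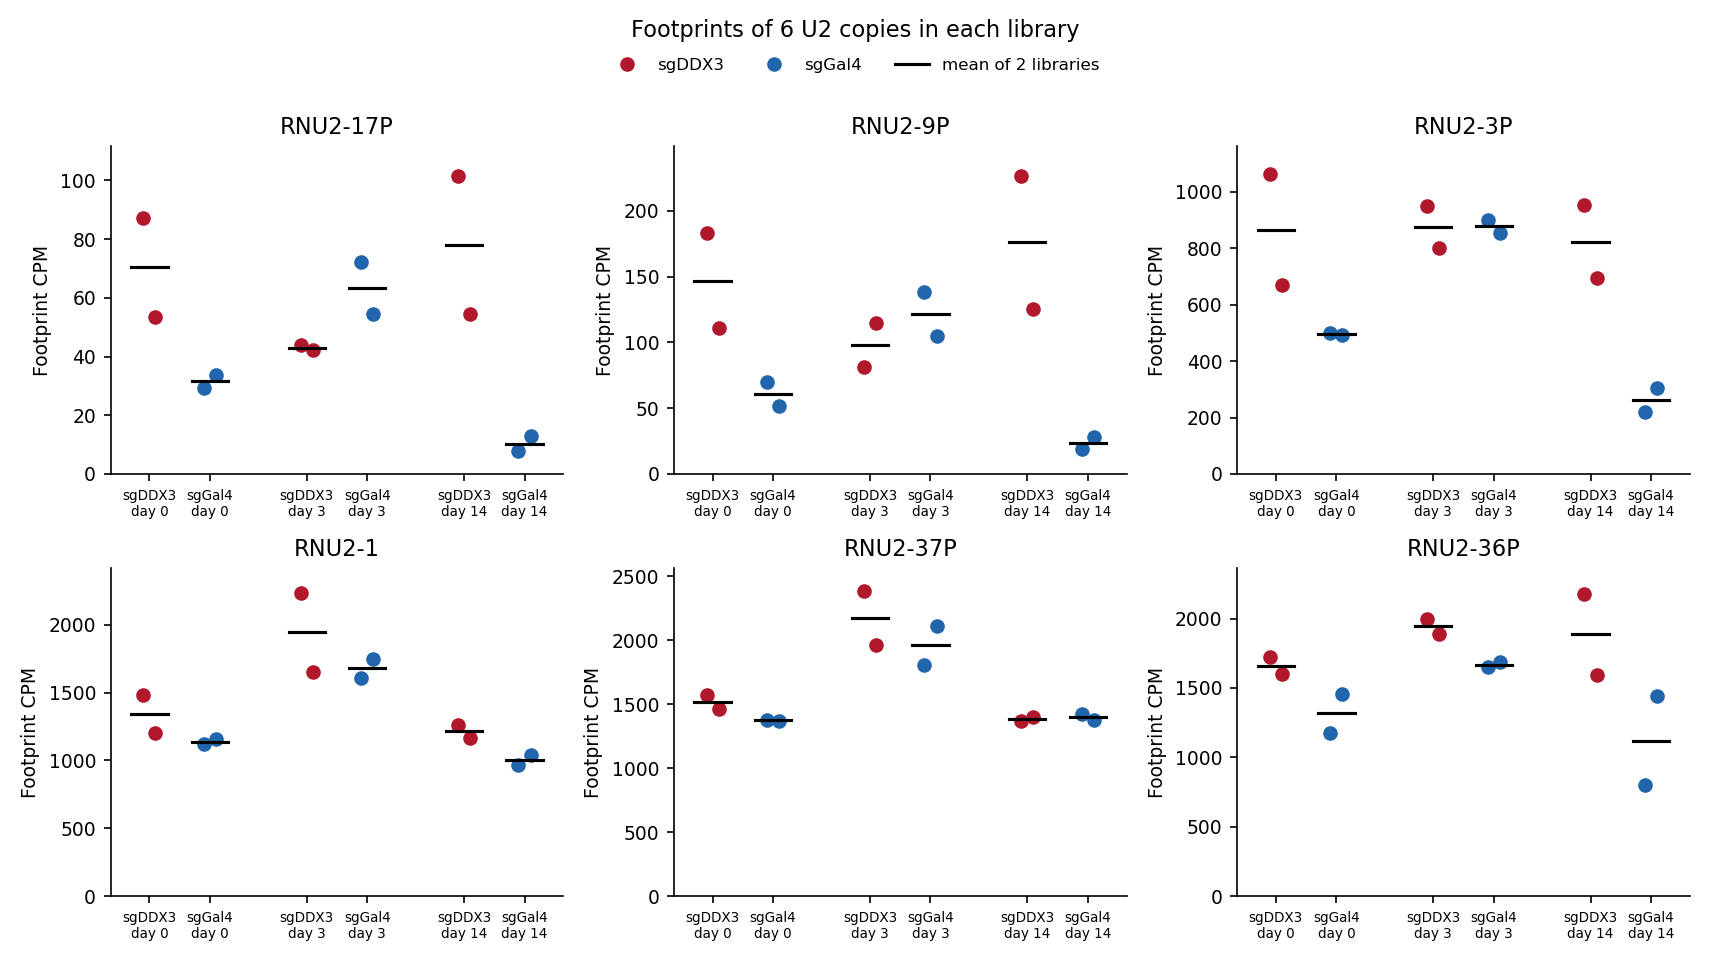
Footprint CPM of 6 U2 copies in each library (points) with the mean of 2 libraries (bars), by guide and day. At day 14, RNU2-17P had 54.6 to 102 CPM with sgDDX3 and 7.82 to 12.8 CPM with sgGal4, and RNU2-37P lay between 1369 and 1423 CPM with both guides.

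The call at day 14 stayed in all 4 fits that left out 1 library for 6 copies, all of U2. Beside RNU2-17P and RNU2-9P these were RNU2-32P with a log2 difference of 2.45 ± 0.27 (edgeR adjusted p = 5.1e-04), RNU2-63P with 2.34 ± 0.27 (adjusted p = 5.5e-04), RNU2-3P with 1.65 ± 0.21 (adjusted p = 0.00111) and RNU2-68P with 1.33 ± 0.19 (adjusted p = 0.00225). RNU2-3P had 953 and 694 CPM with sgDDX3, against 220 and 305 CPM with sgGal4. RNU2-32P had 453 and 284 CPM with sgDDX3, against 57.0 and 77.8 CPM with sgGal4. RNU2-68P had 224 and 195 CPM with sgDDX3, against 68.7 and 98.2 CPM with sgGal4. In footprints HDAC8, in whose span it lies, differed by 0.01 ± 0.11 (adjusted p = 0.972), and the part of the host gene was not tested. The other U2 copies among the 23 had log2 differences of 0.58 or more. Of these, RNU2-8P, RNU2-25P, RNU2-71P and RNU2-49P, with 2.63 to 2.73, lost the call on leaving out the first library of either guide at day 14. Their levels were low, with means of 3.75, 7.40, 3.92 and 14.9 CPM in this order with sgDDX3 at day 14. Of the 28 copies, 6 remained without the first sgDDX3 library of day 14, 8 without the first sgGal4 library and 23 without the second sgGal4 library.

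Of the 23 U2 copies that passed at day 14, 22 were pseudogenes by RefSeq and 1, RNU2-63P, an snRNA gene. At day 0, 19 U2 copies had an unadjusted p under 0.05 although none passed, and 28 of the 35 were higher with sgDDX3 in both libraries, where 18.0% of all genes were, and 2 were lower, where 19.3% of all genes were. At day 14, 28 of the 35 were higher in this sense (23.5% of all genes) and 2 were lower (20.6%). At day 3, 9 were higher (25.4%) and 8 lower (22.3%). The sgDDX3 libraries were thus above the sgGal4 libraries for most U2 copies already at day 0.

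Other non-coding RNAs also differed between the day 14 footprint libraries, as values without a test. Small nucleolar and Cajal body RNAs took 0.595% and 0.602% of footprint counts with sgDDX3, against 0.419% and 0.399% with sgGal4. The nuclear long RNAs MALAT1 and NEAT1 together took 0.155% and 0.150% with sgDDX3, against 0.128% and 0.122% with sgGal4. 7SK and 7SL rows took 0.562% and 0.685% with sgDDX3, against 0.427% and 0.432% with sgGal4. These kinds, Y RNAs and vault RNAs were higher with sgDDX3 without overlap. U6 rows took 0.654% and 0.715% with sgDDX3, against 0.656% and 0.921% with sgGal4, and they overlapped, as did U7, the minor spliceosome's snRNAs and mitochondrial rRNA. Small nucleolar and Cajal body RNAs were higher with sgDDX3 without overlap already at day 0 (0.455% and 0.463%, against 0.435% and 0.430%). The same held at day 3 (0.505% and 0.465%, against 0.454% and 0.422%). MALAT1 and NEAT1 did not overlap at day 0 (0.119% and 0.108%, against 0.101% and 0.0962%) but did at day 3. For 7SK and 7SL rows the guides overlapped at both of these days. The part of these RNAs in the U2 result was not tested.

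U4 copies differed at day 3. RNU4-1 had 779 and 832 CPM of footprints with sgDDX3 at day 0, against 848 and 950 CPM with sgGal4. At day 3 it had 2534 and 1228 CPM with sgDDX3, against 702 and 708 CPM with sgGal4. By day 14 the values were 890 and 1266 CPM with sgDDX3, against 688 and 978 CPM with sgGal4. At day 3 the 2 sgDDX3 libraries were far apart but both above the sgGal4 libraries, and the log2 difference was 1.42 ± 0.26 (edgeR adjusted p = 0.0127). RNU4-2 had 1851 and 877 CPM with sgDDX3 at day 3, against 592 and 605 CPM with sgGal4, a log2 difference of 1.19 ± 0.29 (adjusted p = 0.0402). The other U4 copies that passed at day 3 were the pseudogenes RNU4-89P (1.78 ± 0.42), RNU4-68P (1.72 ± 0.44), RNU4-4P (1.09 ± 0.27), RNU4-7P (1.03 ± 0.19) and RNU4-82P (0.64 ± 0.12). The levels of RNU4-89P and RNU4-68P were low. Their means were 7.47 and 4.73 CPM in this order with sgDDX3, against 2.29 and 1.35 CPM with sgGal4.

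None of the 7 U4 calls of day 3 stayed on leaving out each library. All 7 were lost without either sgGal4 library of day 3. Of the 13 calls of all classes, 1 remained without the first of them and 2 without the second. Leaving out the first sgDDX3 library, the highest for U4, lost RNU4-2, RNU4-4P and RNU4-68P as well, and leaving out the second lost RNU4-89P.

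RNU4-82P was the single copy whose guide difference changed between days past the adjusted threshold in edgeR. It had 99.6 and 101 CPM with sgDDX3 at day 0, against 188 and 152 CPM with sgGal4. At day 3 it had 187 and 153 CPM with sgDDX3, against 104 and 114 CPM with sgGal4. At day 14 it had 152 and 145 CPM with sgDDX3, against 96.6 and 91.8 CPM with sgGal4. It was lower with sgDDX3 at day 0 and higher at days 3 and 14, without overlap at each day. The log2 difference was -0.76 ± 0.12 at day 0 (edgeR adjusted p = 0.0696), 0.64 ± 0.12 at day 3 (adjusted p = 0.0115) and 0.66 ± 0.12 at day 14 (adjusted p = 0.00904). The call of day 3 was lost without either sgGal4 library of that day, and that of day 14 without the first sgDDX3 or the second sgGal4 library.

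The guide difference of RNU4-82P changed by 1.40 ± 0.17 between day 0 and day 3 (edgeR adjusted p = 0.00346) and by 1.42 ± 0.17 between day 0 and day 14 (adjusted p = 0.00422). It was the single copy of 148 to pass either test in edgeR, 0.676% of the copies. Of all genes, 0.0303% and 0.0708% passed in that direction and 0.0910% and 0.0354% in the other. Both changes rest on the same day 0 libraries. The first was lost without the first sgGal4 library of day 3 and the second without the second sgDDX3 library of day 0. In footprints GOLGA1, within which the copy lies, differed between the guides by 0.09 ± 0.14 at day 0, 0.07 ± 0.15 at day 3 and 0.11 ± 0.14 at day 14 (adjusted p at least 0.748). The part of the host gene in the counts of the copy was not tested. Over the 148 copies, the unadjusted edgeR p for the change of the guide difference was under 0.05 in 42 at day 3 and 25 at day 14. DESeq2 called 5 higher and 1 lower at day 3, and 2 higher at day 14. The change by day 3 was positive in all 18 U4 copies (median 1.34) and in 5 of 35 U2 copies (median -0.48). By day 14 it was positive in 14 U4 copies (median 0.39) and 29 U2 copies (median 0.67).

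Of the 85 U1 copies, 47 had an unadjusted p under 0.05 between the guides at day 3, edgeR called 4 and DESeq2 7. RNU1-1, a U1 snRNA gene, had 5168 and 4089 CPM of footprints with sgDDX3 at day 3, against 3015 and 3788 CPM with sgGal4. Its log2 difference was 0.44 ± 0.16 at day 3 (edgeR adjusted p = 0.144) and -0.07 ± 0.16 at day 14 (adjusted p = 0.88). RNVU1-7 had 9375 and 7089 CPM with sgDDX3 at day 3, against 5337 and 6802 CPM with sgGal4, a log2 difference of 0.44 ± 0.16 (adjusted p = 0.158). At day 3, 78 of the 85 U1 copies had a positive difference and 62 were higher with sgDDX3 without overlap (25.4% of all genes).

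The 4 U1 copies called by edgeR had 307 to 38280 footprint counts. RNVU1-6, a variant U1 gene on chromosome 1 with 2916 footprint counts, had 38.9 and 47.3 CPM with sgDDX3 at day 3, against 15.3 and 21.4 CPM with sgGal4. At day 0 it had 22.1 and 19.7 CPM with sgDDX3 and 20.1 and 21.5 CPM with sgGal4, and at day 14 40.9 and 32.1 CPM with sgDDX3 and 18.1 and 15.9 CPM with sgGal4. The guides differed without overlap at days 3 and 14. Its log2 difference was 1.25 ± 0.17 at day 3 (edgeR adjusted p = 0.00179), the one call of that day that stayed on leaving out each library, and 1.11 ± 0.17 at day 14 (adjusted p = 0.00331), lost without the first sgDDX3 library. The others were RNVU1-25 (1.59 ± 0.35), RNVU1-21 (1.58 ± 0.24) and RNVU1-27 (1.10 ± 0.18), each lost without the first sgGal4 library of day 3, RNVU1-25 and RNVU1-27 also without the second, and RNVU1-25 also without the second sgDDX3 library.

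RNVU1-6 was also 1 of the 2 copies that passed in RNA at day 3. It had 5.63 and 5.61 CPM in RNA with sgDDX3 at day 3, against 3.28 and 3.62 CPM with sgGal4, a log2 difference of 0.73 ± 0.20 (edgeR adjusted p = 0.0164). The call was lost without the first library of either guide. Relative to RNA, its footprints differed by 0.53 ± 0.27 at day 3, which did not pass (adjusted p = 0.301).

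U5 copies had positive median differences at all 3 days, and 8 of the 10 were positive at day 0. Of the 10, 0 passed at day 0, 1 at day 3 and 2 at day 14. RNU5B-1 had 5323 and 3788 CPM with sgDDX3 at day 3, against 2000 and 2164 CPM with sgGal4. At day 14 it had 5372 and 6805 CPM with sgDDX3, against 1954 and 6810 CPM with sgGal4. The second sgGal4 library of day 14 was as high as the sgDDX3 libraries, and the first was far below them. The log2 difference was 1.13 ± 0.40 at day 3 (edgeR adjusted p = 0.136) and 0.47 ± 0.39 at day 14 (adjusted p = 0.594). RNU5A-1 had 1586 and 1385 CPM with sgDDX3 at day 3, against 806 and 819 CPM with sgGal4 (0.87 ± 0.33, adjusted p = 0.169).

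RNU5E-1 had 6015 and 4089 CPM with sgDDX3 at day 3, against 3899 and 4210 CPM with sgGal4, and the guides overlapped (0.32 ± 0.15, edgeR adjusted p = 0.29). RNU5F-1 had 3257 and 2285 CPM with sgDDX3 at day 3, against 1669 and 1930 CPM with sgGal4. RNU5D-1 was the U5 copy that passed at day 3, with 178 and 210 CPM with sgDDX3, against 81.8 and 90.7 CPM with sgGal4 (1.17 ± 0.30, adjusted p = 0.0442). At day 14 the pseudogenes RNU5A-8P (1.74 ± 0.38, adjusted p = 0.0249) and RNU5E-4P (1.53 ± 0.35, adjusted p = 0.0303) passed. Each of these calls was lost without the first sgGal4 library of its day, RNU5D-1 also without the second library of either guide, and the others also without the first sgDDX3 library.

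**Figure D5:**
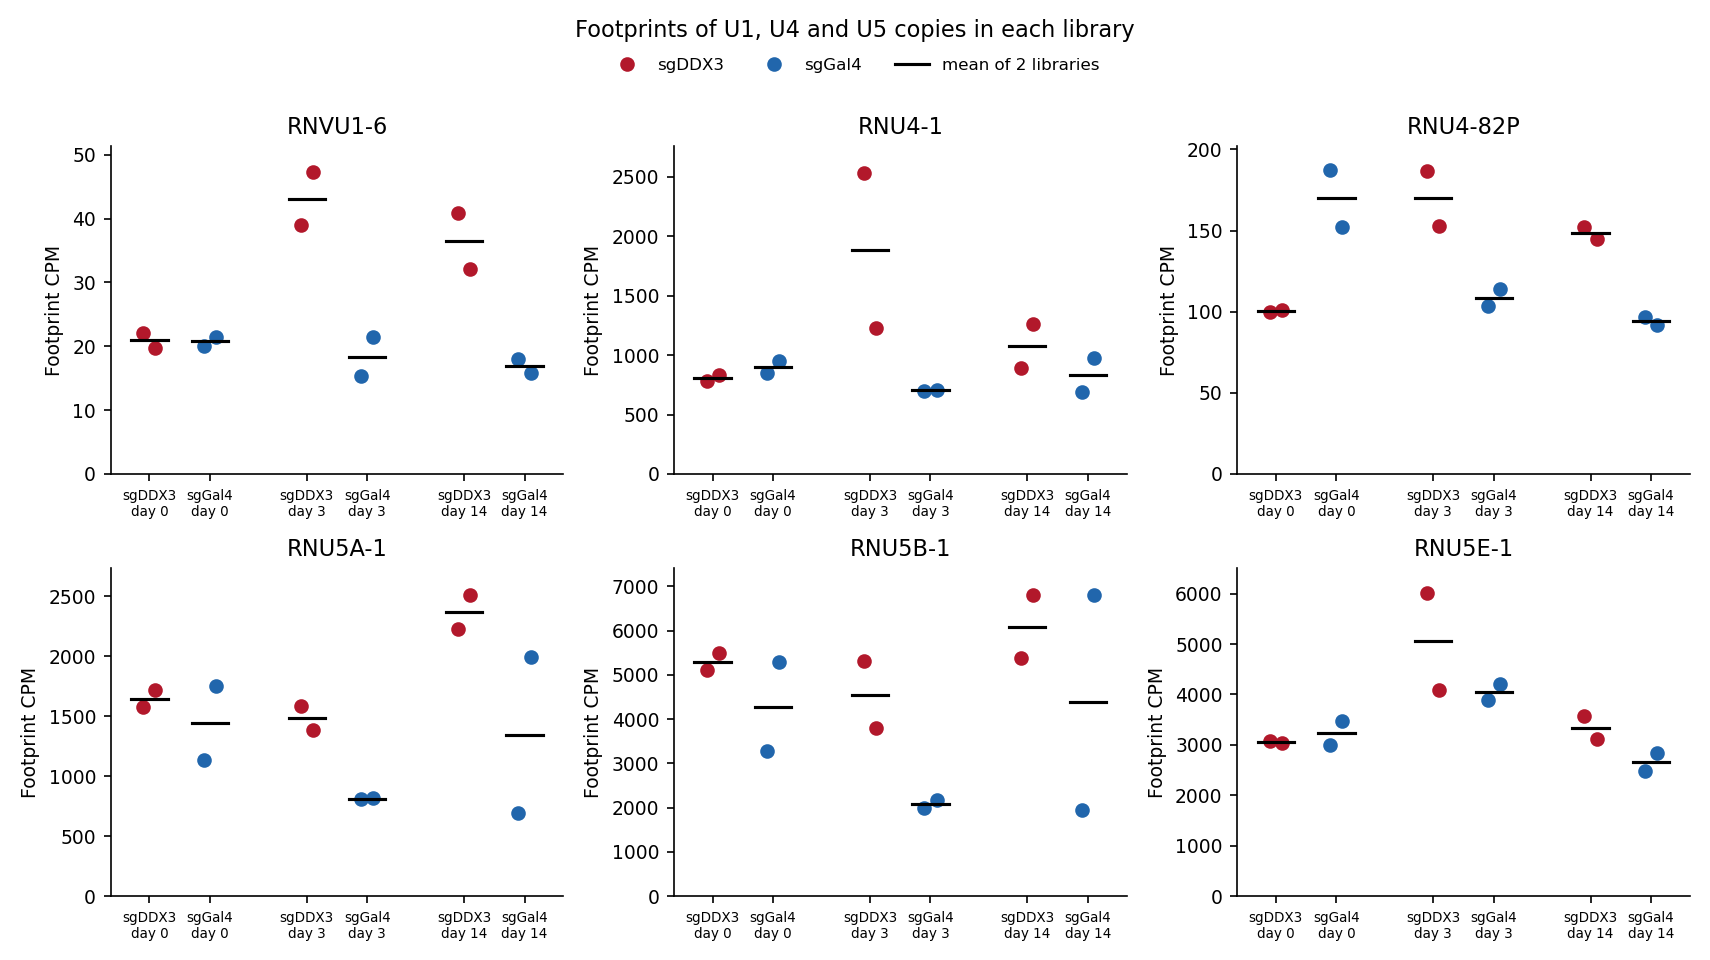
Footprint CPM of RNVU1-6, RNU4-1, RNU4-82P, RNU5A-1, RNU5B-1 and RNU5E-1 in each library (points) with the mean of 2 libraries (bars), by guide and day. RNU4-82P was lower with sgDDX3 at day 0 (99.6 and 101 CPM, against 188 and 152 CPM with sgGal4) and higher at days 3 and 14.

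Over time, U2 copies changed with both guides. With sgGal4, 10 copies rose by day 3 relative to day 0, all of U2 (6.76% of the copies, against 0.703% of all genes), and 3 fell (2.03%, against 0.561%), where 1.26% of all genes passed in either direction. By day 14, none rose with sgGal4 (1.54% of all genes; 40 copies had an unadjusted p under 0.05 in either direction, and DESeq2 called 6 higher) and 6 fell (4.05%, against 0.930%, with 2.47% of all genes in either direction), namely RNU4-82P and the U2 copies RNU2-17P, RNU2-9P, RNU2-32P, RNU2-63P and RNU2-3P. With sgDDX3, 15 copies rose by day 3 (10.1%, against 3.73% of all genes), 7 of them of U2, and none fell (3.82%), where 7.55% of all genes passed in either direction. Without overlap between the days, 55 copies were higher at day 3 with sgDDX3 (25.9% of all genes) and 27 lower (25.4%). By day 14, 5 had risen (3.38%, against 4.69% of all genes), which is below the share of all genes, and none had fallen (3.09%, with 7.78% of all genes in either direction).

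RNU2-33P showed the rise at day 3 in both guides. It had 1221 and 896 CPM with sgDDX3 at day 3, against 716 and 618 CPM at day 0, a log2 difference of 0.67 ± 0.14 (edgeR adjusted p = 0.0109). With sgGal4 it had 1173 and 1257 CPM at day 3, against 672 and 659 CPM at day 0, a difference of 0.87 ± 0.14 (adjusted p = 0.0109). RNU2-37P rose by 0.52 ± 0.11 with sgDDX3 (adjusted p = 0.0131) and by 0.51 ± 0.11 with sgGal4 (adjusted p = 0.0428). RNU2-1 rose by 0.54 ± 0.14 with sgDDX3 (adjusted p = 0.0288), and its value with sgGal4 was 0.56 ± 0.14, which did not pass (adjusted p = 0.0682). All 13 sgGal4 calls of day 3 were lost without either sgGal4 library of day 0 or without the second of day 3, and 5 remained without the first of day 3. Of the 15 sgDDX3 calls, 5 and 4 remained without the first and the second library of day 0, and 7 and 13 without the first and the second of day 3.

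With sgDDX3, 3 of the rises by day 3 stayed on leaving out each library. RNVU1-21 had 14.4 and 14.3 CPM at day 3 and 4.28 and 4.51 CPM at day 0, a log2 difference of 1.70 ± 0.25 (edgeR adjusted p = 0.00173). RNU2-64P had 78.1 and 58.0 CPM at day 3 and 36.0 and 36.6 CPM at day 0 (0.90 ± 0.15, adjusted p = 0.0032), and RNU4-82P rose by 0.76 ± 0.12 (adjusted p = 0.00248). RNU4-1 rose by 1.22 ± 0.26 with sgDDX3 (adjusted p = 0.0129), while with sgGal4 its difference was -0.35 ± 0.26 (adjusted p = 0.576). The change of its guide difference, 1.57 ± 0.37, did not pass (adjusted p = 0.114).

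In RNA, few of the 33 copies tested passed. At day 0 none did in edgeR (0.00547% of all genes passed), with 1 at an unadjusted p under 0.05 and 0 in DESeq2. At day 3, 2 copies were higher with sgDDX3 (6.06% of 33, against 7.68% of all genes), RNVU1-15 (1.08 ± 0.29, adjusted p = 0.0149, lost without the second sgDDX3 or the first sgGal4 library) and RNVU1-6, and none was lower (6.39%). Without overlap, 24 of the 33 were higher at day 3 (26.3% of all genes). At day 14, 1 copy was higher (3.03%, against 8.44% of all genes), RNU4-1 with 69.1 and 136 CPM with sgDDX3 and 58.5 and 73.1 CPM with sgGal4 (0.62 ± 0.19, adjusted p = 0.0304), and none was lower (6.18%). The groups overlapped, and the call was lost without the second sgDDX3 library or either sgGal4 library. Both shares of calls are below those of all genes. The unadjusted edgeR p was under 0.05 for 17 of the 33 at day 3 and for 15 at day 14. A positive difference was found for 29 and 28 of them. The median over the 33 was 0.38 at day 3 and 0.40 at day 14, against -0.01 over all genes tested at both days.

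RNU2-1 had 249 and 250 CPM in RNA with sgDDX3 at day 14, against 214 and 212 CPM with sgGal4, a log2 difference of 0.23 ± 0.09 that did not pass (edgeR adjusted p = 0.101). At day 3 it had 153 and 165 CPM with sgDDX3, against 189 and 154 CPM with sgGal4. Of U2, 3 copies could be tested in RNA, so that the U2 copies that differed in footprints at day 14 have for the most part no RNA value to set beside them. RNU2-63P, the one among the 6 most stable that could, had 1.70 and 1.44 CPM in RNA with sgDDX3 at day 14, against 1.73 and 1.02 CPM with sgGal4.

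Footprints relative to RNA were tested in a joint fit of all 24 libraries, in which 33 copies and 14853 genes were kept. No copy passed at day 3 in edgeR (0.707% of all genes were higher and 4.44% lower), with 4 at an unadjusted p under 0.05. None passed at day 14 (0.377% higher and 1.37% lower), with 3 at an unadjusted p under 0.05, and DESeq2 called 0 at both days. RNU2-63P came nearest at day 14, with 1.98 ± 0.54 (adjusted p = 0.0571), and RNU4-1 at day 3 had 1.11 ± 0.36 (adjusted p = 0.0784). The difference was positive in 29 of the 33 copies at day 3 and in 13 at day 14. At day 3 its median was 0.06 for 23 U1 copies, -0.03 for 3 of U2, 1.03 for 2 of U4 and 1.13 for 5 of U5. At day 14 the medians were -0.48, 0.71, -0.27 and 0.35 in the same order. Over all genes the median was 0.05 at day 3 and 0.02 at day 14.

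The genes for the proteins of these particles were followed in lists, with edgeR's calls between the guides. Of all genes tested, 1.55% were higher and 2.25% lower in footprints at day 3, and 2.11% and 1.29% at day 14. In RNA these shares were 7.68% and 6.39% at day 3, and 8.44% and 6.18% at day 14. No gene of any list passed at day 0, in footprints or in RNA. Of 18 genes for U2 particle proteins, 1 was higher in footprints at day 14 with sgDDX3, SF3B3, a subunit of the factor that holds U2 at the branch point (0.91 ± 0.14, adjusted p = 0.00424), none was lower, and the call stayed on leaving out each library. In RNA, SNRPB2 (lost without the first sgDDX3 or the second sgGal4 library) and SF3A3 (lost without the first sgDDX3 or either sgGal4 library) were lower at day 3. At day 14 SNRPB2 was lower in RNA (lost without the second sgGal4 library) and SF3B3 higher (lost without any 1 of the 4 libraries). Of 8 genes for U1 proteins, LUC7L2 was higher in footprints at day 3 (0.46 ± 0.09, adjusted p = 0.0193, lost without the second sgDDX3 library or either sgGal4 library), and SNRPA and SNRPC were lower in RNA at day 14, SNRPC losing its call without the second sgGal4 library.

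Of 23 genes for U4/U6 and U5 proteins, SNRNP200, the helicase that unwinds U4 from U6, was higher in footprints at day 14 (0.82 ± 0.14, edgeR adjusted p = 0.00796, lost without the first sgGal4 library), as was PRPF8, the core protein of U5 (0.37 ± 0.08, adjusted p = 0.0274, lost without any 1 of the libraries). In RNA, 1 gene of this list was higher and 2 lower at day 3, and 3 were higher and 2 lower at day 14. Of 7 Sm protein genes none passed in footprints, with 1 at an unadjusted p under 0.05 at day 3 and 1 at day 14. In RNA, 2 Sm genes were lower at day 3 and 3 at day 14 (SNRPE, SNRPD3 and SNRPD2, -0.36 to -0.25), each lost at day 14 without the first sgGal4 library, SNRPD3 and SNRPD2 also without the second. Of 27 genes for snRNA transcription and 3-prime processing, INTS6 was higher and INTS5 lower in footprints at day 3, both lost without the second sgDDX3 or either sgGal4 library, and none passed at day 14 (5 at an unadjusted p under 0.05), with 3 higher and 2 lower in RNA at day 3 and 4 higher and 2 lower at day 14. Of 21 genes for export, Sm ring assembly and import, PRMT5 was lower in footprints at day 3, lost without any 1 of the 4 libraries, and none passed at day 14 (5 at an unadjusted p under 0.05), with 3 lower in RNA at day 3 and 1 at day 14. The median log2 difference of each list in footprints at day 14 lay between -0.09 and 0.06, and that of the 35 U2 copies was 0.98.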

How the data were processed

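The deposited files are a table for footprints and a table for RNA that hold raw counts (whole numbers) for each gene and library. The submitters' processing notes name DESeq2, STAR 2.7.5a, Bowtie2 2.4.1 and cutadapt 3.4 beside GRCh38, without roles. How reads were counted, by which strand and with what rule for multi-mapping, is not given in the sources used here. From 58037 rows, 45 pseudoautosomal Y copies were left out, and 98.2% of the rest had a symbol. Coordinates and lengths are from RefSeq for GRCh38.p14. Counts were scaled by TMM within an assay, filtered with filterByExpr (minimum count 10) and tested in edgeR 4.0.16 (R 4.3.3, limma 3.58.1), 1 fit per assay over all 12 libraries, with Benjamini-Hochberg adjustment over all genes and a threshold of 0.05. DESeq2 1.42.0 was the alternative test, with others in the closing section. Summaries used Python 3.11.15, pandas 2.3.3 and matplotlib 3.10.9. The fit was tested on simulated data, in which genes were independent and all genes of an assay had the same spread. That setting does not cover copies that share reads or vary widely between replicates.

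The members and gene lists were chosen with earlier results of these data known. The named copies are RNU2-17P and RNU2-9P, the 3 with most footprint counts per class, the reference snRNA genes, the 5 highest and 5 lowest calls of a comparison, those at the minimum of 200 and up to 3 genes per protein list; a few others were named after their values were seen, such as the copies whose call stayed on leaving out each library, copies in short lists of calls, RNU2-49P and the 7 alike U1 copies. A count of 0 allows up to 3 counts, 0.316 CPM in the median footprint library and 0.207 CPM in the median RNA library, for counting error only.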

Additional observations from a re-analysis of the deposited data

Results flagged for a closer look

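RNU4-82P stands here because the test of the change itself found its difference between the guides to differ between days. The guide difference in footprints changed by 1.40 on the log2 scale between day 0 and day 3 and by 1.42 between day 0 and day 14. At day 0 it was lower with sgDDX3, at days 3 and 14 it was higher, and the day 0 libraries enter both values. With sgDDX3 it rose by 0.76 by day 3 and by 0.57 by day 14 (edgeR adjusted p = 0.00248 and 0.0109), and with sgGal4 it fell by 0.65 and by 0.85 (adjusted p = 0.0191 and 0.00283). The sgDDX3 change by day 3 kept its call on leaving out each library, and that by day 14 lost it without either day 0 library or the first day 14 library. The sgGal4 change by day 3 lost its call without any 1 of the 4 libraries, and that by day 14 kept it. On leaving out 1 library, the changes of the guide difference ran between 1.22 and 1.53 at day 3 and between 1.24 and 1.54 at day 14. It had 15568 footprint counts and 27 RNA counts, too few to be tested in RNA.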

How the results depend on the processing

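The calls rest on 2 libraries a group. How reads were assigned among copies is not given, which leaves the values of single copies and of the class totals uncertain. The counts of calls moved widely with the processing. The differences of the footprint class sums between the guides moved by less than the spread between replicates under the alternatives run for them. These were other scalings, a minimum sum of 100 or 500 in place of 200, and library sizes without the snRNA rows. This last was chosen after seeing the data. Lowering the minimum could move the sums little, since rows under 200 held 6795 footprint counts, against 12169144 on the copies. The spread between replicates was wide in places, with a pooled SD of 0.62 on the log2 scale for U5 at day 14. Not all differences kept their sign. That of U2 at day 3, 0.02, was -0.05 with total counts as the scaling and ran between -0.11 and 0.15 on leaving out 1 library. That of U1 at day 14, -0.04, reached 0.17 without the first sgDDX3 library and 0.07 without the second sgGal4 library, and that of U5 at day 14, 0.61, was -0.00 without the first sgGal4 library. Of the values of single copies under the alternatives, 379 kept their direction and side of the threshold, 152 kept the direction but no longer passed, and none reversed. These alternatives were followed for 48 values of single copies and not for all copies and comparisons. They share libraries with the main fit and do not show how stable the direction of the other copies is. The causes of the changes below were not tested.

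Without a filter on low counts, the copies called between the guides in footprints numbered 29 at day 0, 77 at day 3 and 46 at day 14. Those called between days numbered 44 at day 3 and 44 at day 14 with sgDDX3, and 66 and 53 with sgGal4, and those for the change of the guide difference 48 and 26. In RNA they numbered 16 at day 3 and 14 at day 14, and relative to RNA 6 and 9. DESeq2 called 1 copy between the guides at day 0, 8 with sgDDX3 and 13 with sgGal4 between day 14 and day 0, 6 and 2 for the change of the guide difference, and in RNA 1 at day 3, where the other of the 2 copies had no adjusted p, and 0 at day 14. A fit of only the 4 libraries compared called 13 between the guides at day 0, 7 and 19 with sgDDX3 at days 3 and 14 against day 0, 60 with sgGal4 at day 3, and in RNA 1 at day 0, 16 at day 3 and 0 at day 14.

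Leaving out 1 library at a time, with the lone sample assumed to vary like the other groups, gave 0 to 0 calls between the guides in footprints at day 0, 1 to 17 at day 3 and 7 to 36 at day 14. Between days it gave 5 to 21 and 0 to 5 with sgDDX3 and 0 to 5 and 1 to 10 with sgGal4 at days 3 and 14, and 0 to 8 and 0 to 7 for the change of the guide difference. In RNA it gave 0 to 0, 0 to 3 and 0 to 17 at days 0, 3 and 14, and relative to RNA 0 to 1 at both days.

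The replicate numbers were not taken to pair the samples, since same-numbered libraries of different groups deviated together with r over 0.1 in 1 of 15 pairs of groups in footprints and in 0 of 15 in RNA. With the replicate number as a block, the calls numbered 10 with sgDDX3 and 10 with sgGal4 between day 14 and day 0, and 2 for the change of the guide difference at day 3. The other counts of calls stayed within 1.5 times, though not always over the same copies: with only the 4 libraries compared, the 10 calls between the guides in footprints at day 3 held 4 of the 13, and the 20 at day 14 held 19 of the 28.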
